A study of Mus musculus with 24 samples.

Results

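Glp1r encodes the receptor for glucagon-like peptide 1 (GLP-1). It is 1 of 34039 genes in a table of single-nucleus RNA counts from mouse amygdala, summed by cell type and library. With it go 8 of 271433 peaks in a matching table of open chromatin, those inside the gene or within 2 kb of either end. The gene (gene ID 14652) spans chr17:30901867-30936510 on mm10 in the RefSeq annotation of GRCm38.p6, and its promoter there lies on the plus strand. Glp1r was selected on its measured RNA level and accessibility, both higher in the strain DBA than in the strain BL6. That strain difference is therefore given as a description, with no test. The study profiled nuclei of adult male mice of the inbred strains BL6 and DBA, aged 10 to 16 weeks, with no treatment named, and about 2 animals pooled in each library. Each strain had 2 libraries of single-nucleus RNA sequencing and 2 of single-nucleus ATAC sequencing, an assay in which a transposase inserts into accessible DNA. Accessibility here means ATAC counts, which were not scaled to the number of DNA copies in each strain. Nuclei for RNA were sorted to 75% NeuN-positive (neuronal) and 25% NeuN-negative, and no NeuN sort is listed for the ATAC samples. The libraries carry the numbers 2 and 3 in the count tables, which are used here as names.

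GLP-1 is cut from proglucagon, the product of Gcg, in gut endocrine cells and in a small group of hindbrain neurons. Its receptor belongs to class B1 of the G protein-coupled receptors, couples mainly to Gs and raises cyclic AMP in the target cell. In pancreatic beta cells it enhances insulin release, and in the brain it is known for reducing food intake. The amygdala is one of the forebrain regions known to receive GLP-1 fibres, and the central amygdala, whose neurons are mostly inhibitory, is a known site of Glp1r expression in rodents.

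The promoter is shown because the largest Glp1r peak lies over it. The sequence runs from 250 bases before the annotated start to 50 after, chr17:30901617-30901916 on the plus strand of GRCm38.p6, from RefSeq. Capitals mark the GC boxes, the letters GGGCGG on either strand, of which 2 overlap.
Glp1r promoter: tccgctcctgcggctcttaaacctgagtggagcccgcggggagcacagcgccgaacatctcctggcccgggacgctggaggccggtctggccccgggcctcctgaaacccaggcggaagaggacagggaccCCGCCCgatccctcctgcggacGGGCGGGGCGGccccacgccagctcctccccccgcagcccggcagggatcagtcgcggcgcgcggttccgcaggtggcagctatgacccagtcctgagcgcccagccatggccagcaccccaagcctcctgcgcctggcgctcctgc
This window was 73.7% G or C, against a median of 52.7% over 32851 mouse promoters of the same length, and held 29 CpG dinucleotides against a median of 7. It held 3 GC boxes, a motif found in 35.7% of those promoters. An E-box (CANNTG) was found once, as in 72.3% of promoters with at least 1. No match was found for the TATA box TATAAA (13.6% of promoters), the CCAAT box CCAAT (37.4%), the cyclic AMP response element TGACGTCA (1.79%) or its short form TGACG (20.8%), each searched on both strands.

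RNA libraries held 30693629 to 66304405 counts from 2867 to 8079 nuclei, and ATAC libraries 66535381 to 86927891 counts from 3694 to 6943 nuclei. Non-neuronal nuclei made up 30.1% to 53.0% of the RNA libraries but only 1.81% to 2.97% of the ATAC libraries. ATAC values over all nuclei are thus nearly all neuronal, unlike the RNA values. Values are given as CPM, a count scaled to 1000000 counts of the same library or of the same cell type in that library. The authors' 22 cell types were kept for tests where each of the 4 libraries had 10 or more nuclei and 50000 or more RNA counts, which left 20. The gene sets of the strains differed. A total of 5316 genes had 10 or more counts in DBA and none in BL6, and 290 the reverse, while 22155 genes, Glp1r among them, had 10 or more in each. Summed marker genes were highest in the type they name for oligodendrocytes, oligodendrocyte precursors, astrocytes, microglia, excitatory and inhibitory neurons. Endothelial and mural markers were highest in NN-VLMC among the kept types, not in NN-Endo-VLMC.

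Glp1r RNA was scarce in BL6 and higher in DBA. Over all nuclei, 52 and 22 Glp1r counts were recorded in BL6 libraries 2 and 3, and 198 and 1166 in DBA libraries 2 and 3. These came to 0.784 and 0.717 CPM in BL6 and to 6.16 and 23.0 CPM in DBA. The strains did not overlap, and the lower DBA library still stood far above both BL6 libraries. Over all tested genes, DBA libraries all lay above BL6 libraries in 29.9%. The fitted log2 fold change, DBA minus BL6, was 4.32 ± 0.63 (SE, 2 libraries per strain), or 20.0-fold. The mean was 0.750 ± 0.0477 CPM (SD, n = 2) in BL6 and 14.6 ± 11.9 CPM (SD, n = 2) in DBA. Without DBA library 3 the log2 fold change was 3.07, the lowest with any 1 library left out. Per 100 nuclei, the libraries held 0.644 and 0.497 Glp1r counts in BL6 and 6.91 and 18.6 in DBA. Since counts are summed over nuclei, more nuclei with the transcript and more transcript per nucleus cannot be told apart.

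The difference was present in all 3 broad classes. In excitatory neurons Glp1r was at 0.578 and 0.744 CPM in BL6 and at 7.75 and 28.0 CPM in DBA, a log2 fold change of 4.88 ± 1.01 (SE). In inhibitory neurons it was at 1.06 and 0.980 CPM in BL6 and at 6.30 and 23.0 CPM in DBA, a log2 fold change of 3.86 ± 0.94. In non-neuronal nuclei, with 5 and 4 counts in BL6 and 28 and 62 in DBA, it was at 0.441 and 0.433 CPM against 3.80 and 8.53 CPM, a log2 fold change of 3.88 ± 0.53 (SE). Every class had both DBA libraries above both BL6 libraries.

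More neuronal cell types had a Glp1r count in DBA than in BL6. Of 13 excitatory and inhibitory types, 13 had a Glp1r count in DBA library 3 and 12 in DBA library 2, against 9 and 6 in BL6 libraries 2 and 3. The median over these types was 5.90 and 24.5 CPM in the DBA libraries and 0.376 and 0 CPM in the BL6 libraries. The highest DBA values were in Inh-Lypd6b, at 9.95 and 39.6 CPM from 14 and 26 counts, and in Exc-Tfap2c, at 5.49 and 38.4 CPM from only 1 and 13 counts. Exc-Tafa1, a large excitatory type, followed with 7.35 and 33.9 CPM from 30 and 189 counts, against 2 counts in each BL6 library (0.230 and 0.382 CPM). Among the smaller neuronal values were Inh-Drd2 at 6.97 and 13.8 CPM and Inh-Lamp5 at 4.11 and 17.2 CPM. The order of neighbouring types was not resolved. In DBA, 1 of 19 neighbouring pairs in the order of means had library ranges that did not overlap.

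**Figure D1:**
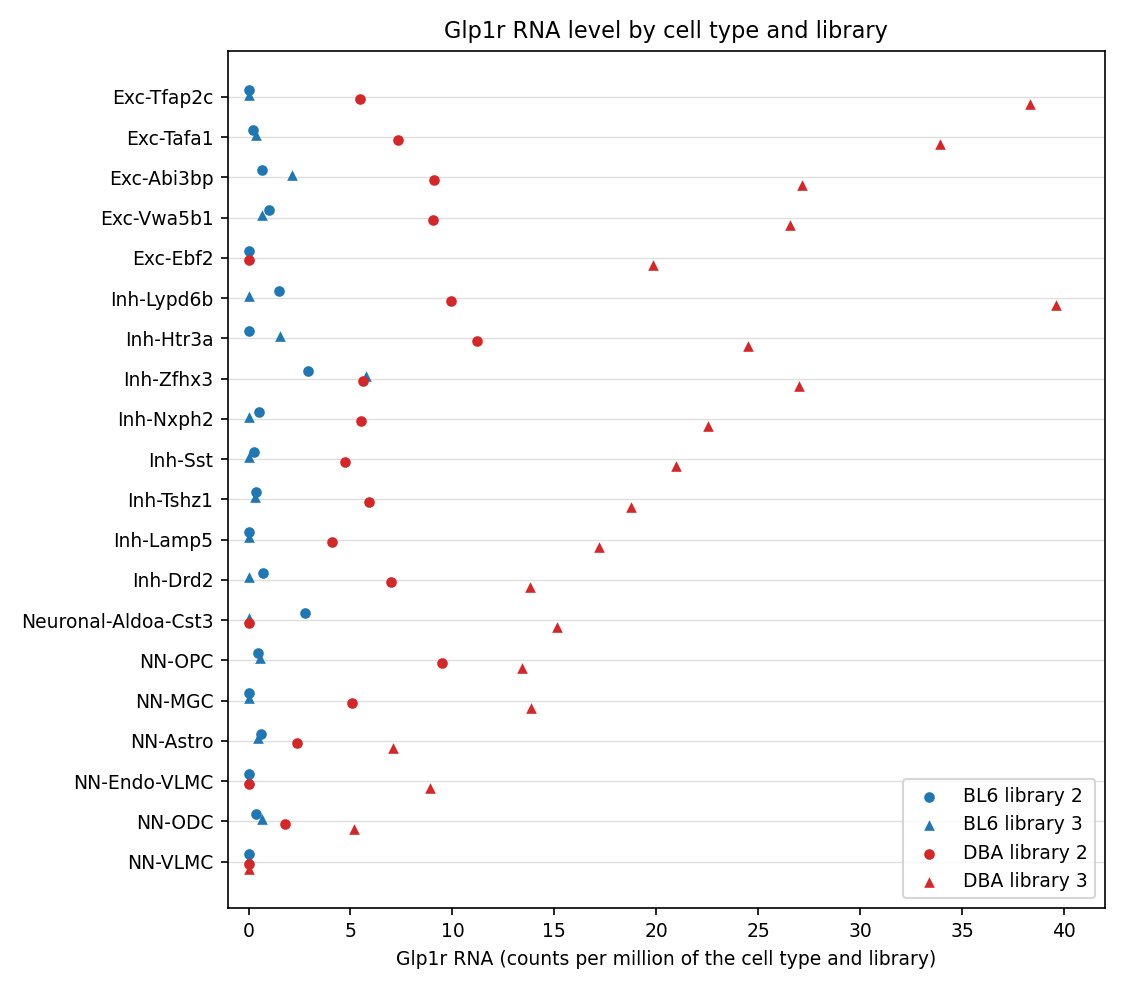
Glp1r RNA level in 20 cell types. The horizontal axis is CPM within the cell type and library, on a linear scale, each symbol is 1 library, and types are grouped as excitatory, inhibitory, unnamed neuronal and non-neuronal. In 15 of the 20 types both red DBA symbols lie to the right of both blue BL6 symbols. DBA library 3 lies furthest right in 19.

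Of the 20 types, 15 had library ranges that did not overlap between strains, and in all 15 DBA was higher. Over all genes and types with counts, both DBA libraries lay above both BL6 libraries in 22.6% of cases. Since Glp1r was chosen for this contrast, nothing is read from that count. The 5 overlapping types were Exc-Ebf2, Inh-Zfhx3, NN-Endo-VLMC, NN-VLMC and Neuronal-Aldoa-Cst3. In Exc-Ebf2, DBA library 3 had 33 counts (19.8 CPM) and the other 3 libraries had 0. In Neuronal-Aldoa-Cst3 there were 2 and 0 counts in BL6 and 0 and 3 in DBA, and NN-VLMC had none in any library. Only 9 of the 20 types passed the filter on low counts in their own fit, and there the log2 fold changes ran from 2.38 ± 1.02 (SE) in Inh-Zfhx3 to 6.14 ± 1.08 in Exc-Tafa1.

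In BL6, Glp1r RNA was concentrated in Inh-Zfhx3. This inhibitory type held 20 of the 52 counts of BL6 library 2 and 8 of the 22 of BL6 library 3, that is 38.5% and 36.4% of counts from 7.58% and 2.73% of nuclei. Its level was 2.93 and 5.76 CPM, and 3.41 CPM over both libraries with an exact Poisson 95% interval of 2.26 to 4.92 that covers counting error only. It was the highest-ranked type in both BL6 libraries among neurons, and its library range lay above that of the next type by mean, Exc-Abi3bp at 0.638 and 2.15 CPM. No other neighbouring pair in the BL6 order was separated in this way. Exc-Ebf2, Exc-Tfap2c and Inh-Lamp5 had no BL6 count. With so few nuclei, 0 counts allowed up to 3.003, 7.84 and 2.79 CPM there at the upper Poisson limit.

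Among the 9 types that passed the filter, Inh-Zfhx3 had the smallest fitted strain difference. The level in DBA was 5.62 and 26.98 CPM, so DBA library 2 (13 counts) lay just below BL6 library 3. Its share of the strain's Glp1r counts was 6.57% and 12.9% in the DBA libraries. In rank it was the eighth and the fifth neuronal type in DBA libraries 2 and 3. The type carried the inhibitory markers Gad2 (241 and 196 CPM in BL6, 261 and 242 in DBA) and Slc32a1 (72.6, 73.4, 62.3 and 55.6 CPM). It also carried the transcription factor genes Zfhx3 (749.7, 582, 674 and 731 CPM) and Meis2 (1069, 1111, 1183 and 1133 CPM). Excitatory Slc17a7 was at 3.60 to 6.001 CPM there.

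Glp1r counts were low in the non-neuronal types of BL6 and higher in most of those of DBA. Oligodendrocytes (NN-ODC) had 1 count in each BL6 library and 2 and 5 in DBA (1.81 and 5.16 CPM), and astrocytes had 3 and 2 in BL6 and 9 and 28 in DBA (2.40 and 7.08 CPM). Oligodendrocyte precursors had 14 and 21 counts in DBA (9.47 and 13.4 CPM) against 1 in each BL6 library. Their mean DBA level was above that of the neuronal types Inh-Lamp5, Inh-Drd2 and Exc-Ebf2. In DBA library 3 alone they were below these types, which stood at 17.2, 13.8 and 19.8 CPM. Microglia had 3 and 7 counts in DBA (5.07 and 13.8 CPM) and none in BL6, where 0 counts allowed up to 1.91 CPM. Neuronal transcripts were also counted in these types. In oligodendrocytes of DBA, the summed level of 11 neuronal markers was 10.1% and 17.2% of that in neurons, beside 26.2% and 20.2% for Glp1r. In astrocytes of DBA it was 38.3% and 39.6%, beside 34.7% and 27.7% for Glp1r. In precursors it was 23.1% and 26.6%, beside 137% and 52.6%, and in microglia 10.9% and 21.6%, beside 73.4% and 54.3%. The part of free neuronal RNA in the glial Glp1r counts was not tested.

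The DBA libraries disagreed on how high Glp1r was. DBA library 3 exceeded DBA library 2 by 3.74-fold in CPM over all nuclei, and by 3.62-fold, 3.65-fold and 2.24-fold in excitatory, inhibitory and non-neuronal nuclei. Non-neuronal nuclei made up 45.9% of DBA library 2 and 30.1% of DBA library 3. Of 12817 genes with 500 or more summed DBA counts, none had a larger ratio, and the median log2 ratio was 0.02. The next were Gm10503 at 3.19-fold, the transcription factor gene Sim1 at 2.88-fold and the mitochondrial ribosomal RNA gene mt-Rnr1 at 2.76-fold, with Dnah8, the gene before Glp1r, in place 6 at 2.44-fold. DBA library 3 was above DBA library 2 in 19 of 20 cell types, and the ratio ran from 1.98-fold to 6.98-fold, with a median of 4.02-fold, over the 12 neuronal types with counts in both. The BL6 libraries differed little, at 0.914-fold. Mitochondrial transcripts took part in the same split, since mt-Cytb was 2.11-fold and mt-Co1 2.06-fold higher in DBA library 3, and their part in the Glp1r ratio was not tested. The numbers of animals behind each library are given only as about 2, so an animal and a library cannot be told apart.

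Excitatory and inhibitory neurons did not differ detectably in Glp1r level. The p-values of strain differences in this report measure the spread between libraries of about 2 pooled animals. Those of classes and types come from fits with the library as a block. They measure the spread among classes or types that is left after library differences are removed. In a fit with both classes of each library and the library as a block, inhibitory minus excitatory was 0.18 ± 0.17 (SE) on the log2 scale (edgeR quasi-likelihood, adjusted p = 0.561), while 30.3% of genes were called between these classes. The strain difference was smaller in inhibitory than in excitatory neurons by 1.01 ± 0.35 on the log2 scale, which did not pass (edgeR's quasi-likelihood test, adjusted p = 0.600, with 0.146% of genes called, 0.0753% higher and 0.0709% lower). Among all 20 cell types the strain difference did vary. The F statistic over 19 interaction terms was 2.47 (adjusted p = 0.0396, with 5.95% of genes called). With the 13 neuronal types alone, chosen after the data were seen, F was 3.65 (adjusted p = 0.0303, with 1.52% of genes called), and with a minimum of 50 nuclei it was 4.21 (adjusted p = 0.0030). The call rested on all 4 libraries: without any 1 of them the adjusted p lay between 0.116 and 0.662. Without the library block it was 1.00.

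The 8 peaks of Glp1r fell into 6 with higher ATAC counts in DBA and 2 with little difference. Peak 1, over the gene start at chr17:30901254-30902410, was the largest, with 316 and 388 counts in BL6 and 888 and 694 in DBA. In CPM it stood at 4.36 and 4.46 in BL6 and at 11.04 and 10.4 in DBA, a log2 fold change of 1.33 ± 0.11 (SE). Peak 3, at chr17:30911245-30912113 inside the gene, had 1.67 and 1.79 CPM in BL6 and 5.47 and 6.28 CPM in DBA, a log2 fold change of 1.80 ± 0.14. In both peaks the libraries of 1 strain lay close together and the strains far apart.

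The 4 smaller peaks of the first 22 kb followed the same pattern. Peak 2 (chr17:30907672-30907903) was at 0.704 and 0.506 CPM in BL6 and 1.68 and 1.67 CPM in DBA. Peak 4 (chr17:30918521-30918746) was at 0.373 and 0.449 against 0.995 and 0.947 CPM. Peak 5 (chr17:30919383-30919858), at 0.483 and 0.437 against 1.63 and 1.85 CPM, had the largest log2 fold change of the 8, 1.958 ± 0.23 (SE). Peak 6 (chr17:30923435-30923914) was at 1.37 and 1.28 against 2.34 and 2.65 CPM, a log2 fold change of 0.96 ± 0.17. The first 6 peaks were thus 1.94-fold to 3.89-fold higher in DBA in the fit. Both DBA libraries lay above both BL6 libraries in 7 of the 8 peaks, and in 16.7% of all tested peaks, but the 8 were chosen on this contrast.

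The last 2 peaks differed less between the strains over all nuclei. Peak 7 (chr17:30926420-30927202), still inside the gene, was at 1.82 and 2.05 CPM in BL6 and 1.87 and 1.80 CPM in DBA, a log2 fold change of -0.03 ± 0.17 (SE). Peak 8 (chr17:30938212-30938770) lies 1702 bp beyond the annotated end and was at 2.91 and 2.63 against 2.98 and 3.05 CPM, a log2 fold change of 0.17 ± 0.14, with both DBA libraries just above both BL6 libraries. In inhibitory neurons peak 8 was at 2.23 and 2.03 CPM in BL6 and 2.85 and 3.17 CPM in DBA, and in excitatory neurons at 3.31 and 3.17 against 3.21 and 3.04 CPM, where the strains overlapped. The nearest peaks outside the 2 kb limit were 8584 bp after the gene (log2 fold change 0.35) and 8888 bp before it (1.1). Exon and intron positions were not used here, so the place of peaks 2 to 7 within the gene is given by coordinates alone.

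**Figure D2:**
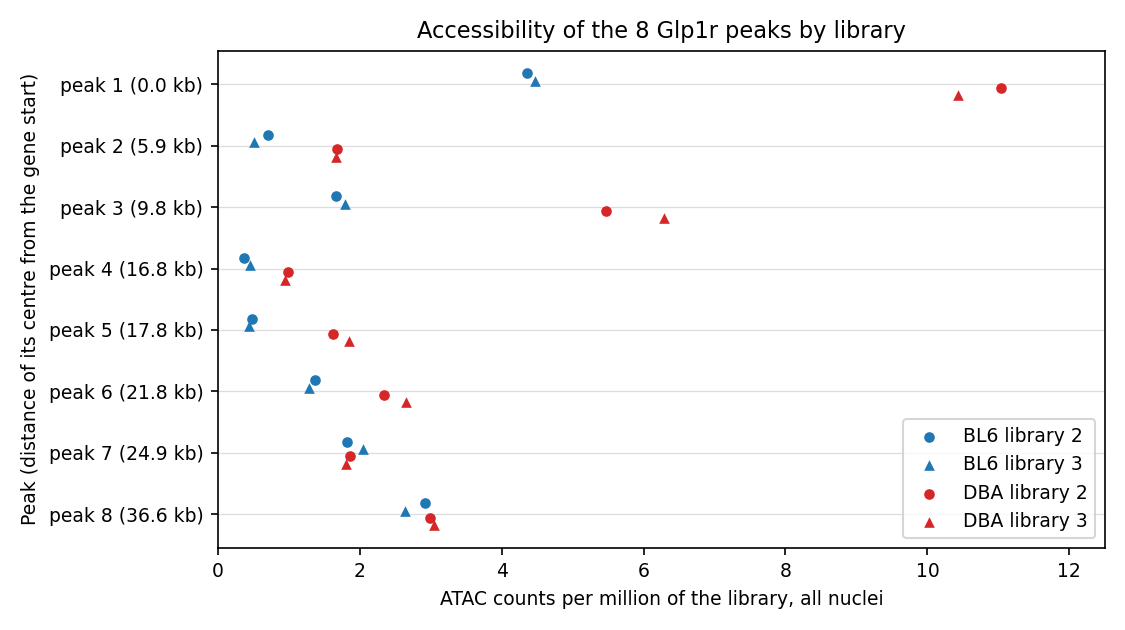
Accessibility of the 8 Glp1r peaks over all nuclei. The horizontal axis is ATAC CPM on a linear scale, each symbol is 1 library, and the labels give the distance of each peak's centre from the gene start. Blue and red symbols are apart in peaks 1 to 6 and mingle or touch in peaks 7 and 8.

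Over all nuclei, accessibility differed less than RNA between the DBA libraries. DBA library 3 over DBA library 2 was 0.945-fold at peak 1, 1.15-fold at peak 3 and between 0.945-fold and 1.15-fold over all 8. Within classes the DBA libraries lay further apart at peak 3, at 4.46 and 7.17 CPM in excitatory and 6.57 and 5.18 CPM in inhibitory neurons. ATAC and RNA libraries were prepared from separately listed samples, so the numbers do not link an ATAC library to an RNA library.

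Accessibility of some peaks differed between neuron classes. Inhibitory minus excitatory, peak 1 was higher by 0.24 ± 0.08 (SE) on the log2 scale (edgeR quasi-likelihood, adjusted p = 0.00608) and peak 3 by 0.31 ± 0.13 (adjusted p = 0.0403). Peak 6 was lower in inhibitory neurons, by -0.84 ± 0.16 (adjusted p = 7.47e-06). In BL6 peak 6 had 1.80 and 1.67 CPM in excitatory and 0.665 and 0.822 CPM in inhibitory neurons, and in DBA 2.80 and 3.15 against 1.71 and 2.11 CPM. Class calls were common, at 62.0% of all peaks (30.2% higher and 31.9% lower in inhibitory neurons), and 3 of 8 is below that share. Peak 6 kept its call without any 1 library (adjusted p up to 0.000704), while peak 1 lost it without BL6 library 3 (0.0606). Peak 3 lost it without BL6 library 2 (0.170) or DBA library 2 (0.709). By DESeq2, 1 of the 8 was called. The strain difference did not differ detectably between the classes at any of the 8 peaks, with adjusted p from 0.525 to 0.993, 0 called by edgeR or DESeq2 and 1, peak 8, at an unadjusted p of 0.0314, while 0.246% of all peaks were called (0.118% higher, 0.129% lower).

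By cell type, peak 1 was higher in both DBA libraries than in both BL6 libraries in 13 of 16 types, peak 2 in 10, peak 3 in 14, peak 4 in 6, peak 5 in 7 and peak 6 in 12. Peak 7 was higher in 2 types and lower in 3, peak 8 higher in 3 and lower in 1, and peak 4 lower in 1. Over all peaks and types both DBA libraries lay above both BL6 libraries in 18.2% of cases. The share with DBA below is not given here, so nothing is read from the lower counts. In Inh-Zfhx3, the type with most Glp1r RNA in BL6, peak 1 was at 7.58 and 5.88 CPM in BL6 and 14.6 and 10.1 CPM in DBA. In Exc-Tafa1, with hardly any Glp1r RNA in BL6, it was at 2.22 and 2.13 against 7.51 and 7.90 CPM. Exc-Vwa5b1, also low in BL6 RNA at 1.01 and 0.669 CPM, had a BL6 peak 1 of 6.12 and 7.12 CPM, close to that of Inh-Zfhx3.

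The higher ATAC counts in DBA did not begin at Glp1r. Going outward from peak 1, the peaks were about 2-fold higher in DBA over a stretch of 475.0 kb, from chr17:30448919 to chr17:30923914, which begins 452.9 kb before Glp1r and ends 22.0 kb into it. The stretch was found after the values were seen, by following windows of 5 successive peaks with a median fold of 1.5 or more, and is a description. It held 78 tested peaks, of which 72 were 1.5-fold or more higher in DBA, against 3.26% of all peaks. The rule itself makes that count high. Their median log2 fold change was 1.05, and 2 were below 0. Both of those 2 lie within the span of Dnah8, 30543 and 38559 bp before the start of Glp1r. From these counts, more open DNA and more copies of the DNA in the stretch cannot be told apart.

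Just outside the stretch the strain difference fell off, which follows in part from the 1.5-fold rule that set its ends. Summed over the peaks of the stretch, accessibility was 199 and 195 CPM in BL6 and 407 and 379 CPM in DBA. The ratio of strain means was 1.99. Over the 50 tested peaks before the stretch the ratio was 1.03, and over the 50 after it 1.04. Just before the first peak lies one at 1.08-fold, and just after the last, peak 6 of Glp1r, lies peak 7 at 0.976-fold. The ratio was 1.99 in excitatory, 2.00 in inhibitory and 2.00 in non-neuronal nuclei, and from 1.68 in Inh-Lamp5 to 2.37 in Inh-Drd2 across 16 cell types. No type had strains that overlapped, but the stretch was found on this contrast. Within the stretch 26 of 78 peaks were called higher and 19 lower in inhibitory neurons, beside 30.2% and 31.9% of all peaks. The strain difference was called as differing between the classes at 1 of the 78, beside 0.246% of all peaks. Of 269638 windows of 78 successive peaks elsewhere in the genome, 46 had a median as high, all of them on chromosome 1. The stretch was picked for its high values, so nothing is read from that number.

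**Figure D3:**
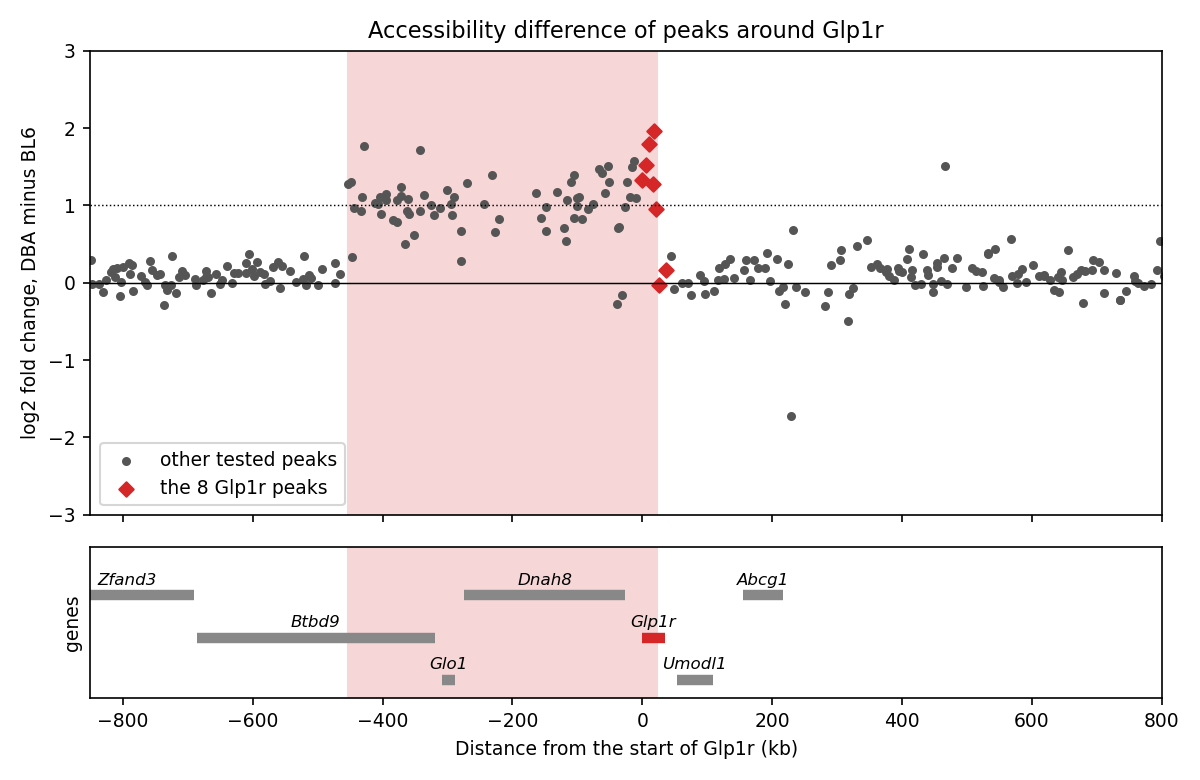
Log2 fold change of accessibility, DBA minus BL6, for tested peaks around Glp1r. The horizontal axis is the distance of a peak's centre from the start of Glp1r in kb, red diamonds are the 8 Glp1r peaks, the dotted line marks a 2-fold difference, and bars below show gene spans. The shaded stretch of 475.0 kb holds peaks mostly near the dotted line, from within Btbd9 to within Glp1r, and most peaks on both sides lie near 0.

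Counted by the test across all peaks, 68 of the 155 peaks between 2 kb and 500 kb from Glp1r were called higher in DBA and 1 lower. That is 44.5%, where 6.44% of all 271420 tested peaks were called, 3.21% higher and 3.23% lower. Before the gene 64 of 77 were higher and none lower. After the gene 4 of 78 were higher and 1 lower, 6.41%. The contrast is the one Glp1r was chosen for, and these peaks share the gene's neighbourhood, so the share describes the region and is no separate support.

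RNA of the neighbouring genes did not follow accessibility uniformly. Dnah8, which encodes an axonemal dynein heavy chain and ends 26.1 kb before Glp1r, was at 1.34 and 1.21 CPM in BL6 and at 6.50 and 15.9 CPM in DBA. It was higher in DBA by 3.18 ± 0.43 (SE) on the log2 scale (edgeR quasi-likelihood, adjusted p = 0.000993), though without BL6 library 2 it missed the threshold (0.0592). Gm41561, a lncRNA gene within the span of Dnah8, went from 0.0905 and 0.163 to 0.467 and 1.07 CPM (adjusted p = 0.00833), with the call lost without BL6 library 2 (0.0566) or DBA library 3 (0.154). Whether counting used strand is not given in the sources used here, so reads of these overlapping genes may be shared.

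Glo1, which encodes glyoxalase 1 and lies wholly within the stretch, was at 11.1 and 12.3 CPM in BL6 and 9.12 and 14.0 CPM in DBA, with a log2 fold change of 0.04 ± 0.22 (adjusted p = 0.946). The pseudogene Gm8373 lies within the span of Glo1, at 0 CPM in both BL6 libraries and 2.40 and 4.56 CPM in DBA. Reads of these overlapping genes may be shared too, and the part of this in the Glo1 values was not tested. Btbd9, which the first end of the stretch cuts, was lower in DBA, at 122 and 142 CPM against 196 and 198 CPM in BL6 (log2 fold change -0.53 ± 0.11, adjusted p = 0.00902, and 0.114 without DBA library 2). Beyond Glp1r, the lncRNA gene Gm41562 was lower in DBA, at 0.124 and 0.138 CPM against 0.543 and 1.17 CPM (adjusted p = 0.00944), and not called without DBA library 2 (0.0669) or DBA library 3 (0.0937). Umodl1 was at 0.287 and 0.554 against 0.405 and 0.533 CPM and Abcg1, a cholesterol exporter gene, at 41.3 and 40.0 against 37.0 and 40.4 CPM, and neither was called.

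**Figure D4:**
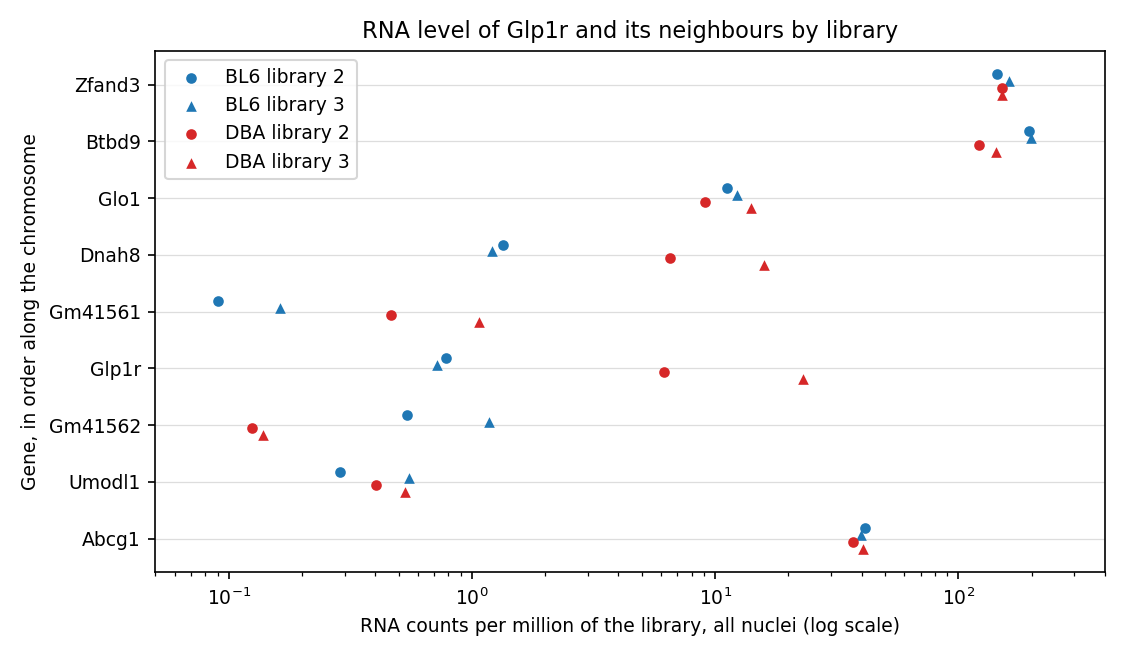
RNA level of Glp1r and neighbouring genes over all nuclei, in their order along the chromosome. The horizontal axis is CPM on a log scale and each symbol is 1 library. Dnah8, Gm41561 and Glp1r have both red DBA symbols to the right of both blue BL6 symbols, Btbd9 and Gm41562 have them to the left, and Glo1 has them on both sides.

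Within 1 Mb of Glp1r, 44 other genes are annotated, 25 were in the table and 22 were tested. In all, 6 were called higher and 2 lower in DBA, or 8 of 22, where 24% of all 25329 tested genes were called, 18.3% higher and 5.69% lower. Besides those above, the higher ones included Pde9a (log2 fold change 0.39, adjusted p = 0.0240) and the pseudogenes Gm6402 (1.49 and 1.32 CPM in DBA) and Gm8373 (2.40 and 4.56 CPM in DBA), both at 0 in both BL6 libraries. Reads of pseudogenes can be shared with near-identical copies, so these values are uncertain. Among genes counted in both strains, 4.88% were called and 4 of these neighbours were. Pde9a, a cyclic GMP phosphodiesterase gene, was not among the 4 (adjusted p = 0.0826).

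Dnah8 was higher in DBA in each class, as Glp1r was, with its own levels across cell types. In excitatory neurons it was at 0.771 and 0.279 CPM in BL6 and 6.87 and 18.3 CPM in DBA, and in inhibitory neurons at 0.848 and 0.686 against 4.69 and 14.9 CPM. In oligodendrocytes it was at 11.5 and 6.49 CPM in BL6 and 36.2 and 36.1 CPM in DBA, where Glp1r was nearly absent in BL6. The Pearson correlation of Glp1r and Dnah8 over the 20 types was -0.11, on log2(CPM + 1) of counts summed over the 4 libraries, and Spearman's rho was 0.21, so the sign depended on the measure.

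The genes whose level over the 20 types was most like that of Glp1r by the same measure were Ttc13 (r = 0.91), Uevld (0.91), Flvcr1 (0.90), Sms (0.90), Slc2a6 (0.89), Dhx30 (0.89), Decr2 (0.89), Stap1 (0.89), Gpr85 (0.89) and Oaz3 (0.88). All points share their libraries and differ in depth, and 1.73% of 14654 genes had r above 0.8. The list did not hold up under other settings: 3 of the 10 stayed with a pseudocount of 0.1, 7 with 5, 2 with Spearman's rho and 2 in DBA alone. In BL6 alone none stayed, and the most like gene was Sim1 (r = 0.90), a transcription factor gene known from hypothalamic neurons that control feeding. None of the 10 was called between the strains (edgeR quasi-likelihood, adjusted p from 0.0992 to 0.929). Of all tested genes, 18.3% were called higher and 5.69% lower in that fit. All 10 had counts in both strains, and among genes counted in both strains only 4.88% were called in their own fit. The lack of a call therefore does not set these 10 apart.

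Of the 14 other class B1 receptors, 12 were tested over all nuclei and 1 was called, lower in DBA, beside 24% of all genes (18.3% higher, 5.69% lower) and 4.88% of genes counted in both strains. Their median log2 fold change was 0.05, beside 0.04 over all genes. The lower one was Gipr, the receptor of the incretin GIP, at 2.68 and 3.58 CPM in BL6 and 1.52 and 1.60 CPM in DBA (log2 fold change -0.94 ± 0.25 (SE), adjusted p = 0.0322). It was not called without BL6 library 3 (0.120), DBA library 2 (0.179) or DBA library 3 (0.177), nor among genes counted in both strains (0.114). The receptor of the sister peptide GLP-2, Glp2r, was at 126 and 118 CPM in BL6 and 96.4 and 107 CPM in DBA (adjusted p = 0.220). The PACAP receptor gene Adcyap1r1 was at 41.5 and 58.5 against 45.3 and 48.8 CPM (0.939). The corticotropin-releasing hormone receptor gene Crhr1 was at 15.2 and 13.8 against 13.2 and 17.8 CPM (0.704). The glucagon receptor gene Gcgr was barely counted, with a highest value of 0.0754 CPM, and was not tested.

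**Figure D5:**
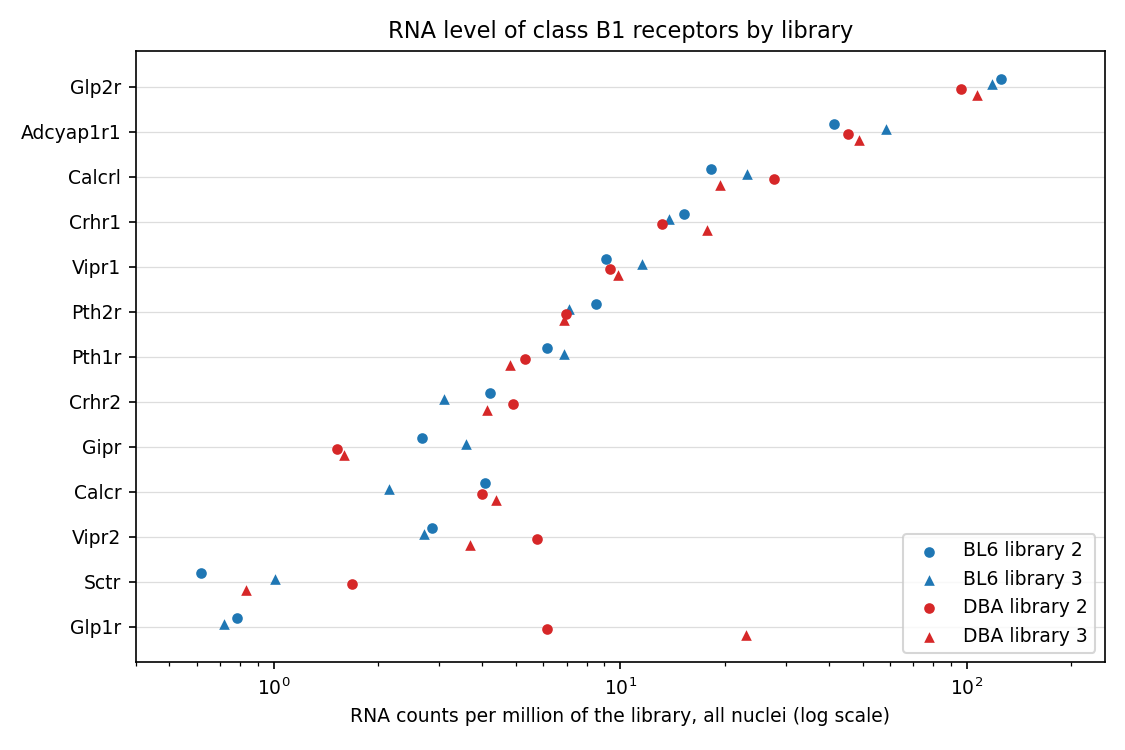
RNA level of Glp1r and the 12 other tested class B1 receptors over all nuclei. The horizontal axis is CPM on a log scale, each symbol is 1 library, and levels are to be compared within a row, since CPM is not scaled to transcript length. Glp1r, in the bottom row, has its red DBA symbols furthest from its blue BL6 symbols, and in most other rows the colours mingle or touch.

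By class the calls on these receptors were as follows, with no test of one class against another. The shares over all genes include genes counted in DBA alone, and shares among genes counted in both strains are not given by class. Among 11 tested in excitatory neurons, calls went only toward lower values in DBA, for 2 receptors, where 24.3% of genes were called (16.7% higher, 7.54% lower). They were Glp2r (log2 fold change -0.29, adjusted p = 0.0454) and the parathyroid hormone receptor gene Pth2r (-0.85, 0.0149). There were 0 calls there by DESeq2 or without DBA library 3, and 1 without BL6 library 2 or BL6 library 3. In inhibitory neurons the lowest adjusted p among 11 was 0.0688, for Glp2r, where 23.9% of genes were called (17% higher, 6.82% lower). In non-neuronal nuclei 3 of 10 were higher and 3 lower, where 20.0% of genes were called (13.5% higher, 6.51% lower). Higher were Vipr2 (1.40, adjusted p = 0.000596), Calcrl (0.72, 0.000776) and Sctr (1.06, 0.0334), and lower were Gipr (-2.48, 0.00455), Glp2r (-0.83, 0.0028) and Vipr1 (-1.87, 0.0171). Without DBA library 2 only 2 of these 10 receptors were called, and 4 to 5 without any other library. In these data Vipr2 and Calcrl had their highest level in oligodendrocyte precursors and Sctr in astrocytes.

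The ligand genes of the family were mostly scarce. The GLP-1 precursor gene Gcg had 0.0603 and 0 CPM in BL6 and 0 and 0.198 CPM in DBA and was not tested. Of 18 ligand genes 8 were tested and 1 was called over all nuclei. This is beside 24% of all genes, 5.69% lower, and 4.88% of genes counted in both strains. The called ligand gene was Ucn3, encoding urocortin 3, lower in DBA at 0.311 and 0.296 CPM against 0.935 and 0.912 CPM (log2 fold change -1.56 ± 0.33 (SE), edgeR quasi-likelihood, adjusted p = 0.0107). It was not called without BL6 library 2 (0.0589), DBA library 2 (0.0729) or DBA library 3 (0.116), by DESeq2 (0.0783), or among genes counted in both strains (0.0571).

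Few genes that make, break down or pass on the GLP-1 signal were called between the strains, beside 24% of all genes (18.3% higher, 5.69% lower) and 4.88% of those counted in both strains. Of 7 genes for the making and breakdown of GLP-1, the peptidase gene Fap was higher in DBA, at 13.2 and 8.83 CPM against 2.08 and 2.12 CPM in BL6 (log2 fold change 2.43 ± 0.25 (SE), adjusted p = 0.000232). Dpp4, whose enzyme inactivates GLP-1, and the convertase genes Pcsk1 and Pcsk2 were not called over all nuclei. Pcsk1, which cuts GLP-1 from proglucagon, was lower in inhibitory neurons (-0.67, adjusted p = 0.00219). Of 30 genes of Gs and cyclic AMP signalling, 1 was called over all nuclei, the receptor kinase gene Grk3. Its level was 118 and 163 CPM in BL6 and 95.4 and 82.0 CPM in DBA (log2 fold change -0.61 ± 0.16, adjusted p = 0.0238, and 0.0857 among genes counted in both strains). It was not called without DBA library 2 (0.0612) or DBA library 3 (0.200). The median log2 fold change of these 30 was 0.02.

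Of 25 tested receptors of other feeding peptides, 1 was called over all nuclei, beside 24% of all genes, Nmbr, the neuromedin B receptor gene. It was higher in DBA, at 3.80 and 3.48 CPM against 1.69 and 1.63 CPM (log2 fold change 1.17 ± 0.23 (SE), adjusted p = 0.0064, and 0.0594 without DBA library 2). In excitatory neurons 2 of 21 tested were called, both higher, where 24.3% of genes were called (16.7% higher, 7.54% lower). They were Nmbr (1.92, adjusted p = 0.00148) and the substance P receptor gene Tacr1 (0.44, 0.0132). In inhibitory neurons 1 of 24 was called, also higher, where 23.9% of genes were called. In non-neuronal nuclei 1 of 14 was called higher, where 20.0% of genes were called. Over the 5 lists, 5 members were called over all nuclei. With the fit limited to genes counted in each strain, where 4.88% were called, 2 were.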

How the data were processed

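Single-nucleus RNA and ATAC libraries of mouse amygdala were analysed, 2 per strain and assay; 16 methylation libraries of the series were not analysed here. The authors deposited both tables as raw counts per gene or peak, already added up by cell type and library, with the number of nuclei behind each sum; per the submitters' processing notes, Cell Ranger 6.0.2, Seurat 4.0.5, Cell Ranger ATAC 2.0.0 and mm10 were used. The annotation behind each strain's genes and the strand setting are not given in the sources used here. Depth was 30693629 to 66304405 counts per RNA library, and intervals cover counting error only.

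Counts were used by cell type and library, and summed to classes and to all nuclei. Tests used edgeR 4.0.16 (quasi-likelihood, TMM factors, filterByExpr with a minimum count of 10, Benjamini-Hochberg adjustment over all features, threshold 0.05), in R 4.3.3. Class and type fits kept the library as a block within strain. DESeq2 1.42.0 was an alternative, with RLE factors, total counts, no filter, each library left out, a replicate block and genes counted in both strains. The members and gene lists were chosen with earlier results of these data known. Named are Glp1r, its 8 peaks, called genes within 1 Mb, called list members, and the 10 genes most like Glp1r; others were named after their values were seen. The values of 1 called neighbour are not reported here. The fits were tested on simulated data. Same-numbered libraries of the strains did not deviate in the same direction (correlation -0.367 for RNA and -0.0673 for ATAC), and the numbers are used as names. In RNA the deviations tended to be opposite. Non-neuronal nuclei made up 36.6% and 53.0% of BL6 RNA libraries 2 and 3, and 45.9% and 30.1% of DBA RNA libraries 2 and 3. The part of this composition in the strain fits over all nuclei was not tested. Replicate libraries differed beyond sampling noise (chi-square per degree of freedom 1.90 to 31.1).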

Additional observations from a re-analysis of the deposited data

Results flagged for a closer look

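The strain difference of Glp1r RNA differed among the 20 cell types (edgeR's quasi-likelihood test over 19 interaction terms, Benjamini-Hochberg adjusted p = 0.0396), which is why it is given here. Only 9 types passed the filter in their own fit, most of them through their DBA counts. Among these, the smallest fitted difference was in Inh-Zfhx3, with 2.93 and 5.76 CPM in BL6 and 5.62 and 26.98 CPM in DBA. The largest was in Exc-Tafa1, with 0.230 and 0.382 CPM in BL6 and 7.35 and 33.9 CPM in DBA. The call was lost without any 1 of the 4 libraries (adjusted p from 0.116 to 0.662).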

How the results depend on the processing

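With 2 libraries per strain, each value rests on few samples, and in most cell types of BL6 Glp1r had 0 to 4 counts per library. The log2 strain difference of Glp1r RNA ran from 3.07 (without DBA library 3) to 4.97 (without DBA library 2) with a library left out, and was 3.97 with the library number as a replicate block. The F for strain by cell type ran from 1.47 to 2.35 with a library left out, none of them called, and was 0.428 with no replicate block. The 6073 genes called between strains became 1033 among genes counted in both strains, and 5263 with the replicate block. The 5 list members called became 8 with no filter, 2 with the replicate block, 11 with the library numbers crossed as a block (chosen after seeing the data), 2 among genes counted in both strains, and 1 (without DBA library 2) to 10 (without BL6 library 2) with a library left out; without DBA library 3 there were 3. The 8 neighbours called within 1 Mb became 4 among genes counted in both strains, 17 within 2 Mb, and 4 (without DBA library 3) to 7 with a library left out; without DBA library 2 there were 5. The median log2 strain difference of the peaks, 1.3, became 1.19 for peaks within 10 kb. DESeq2 called 1 peak between classes in place of 3. The 69 flanking peaks called became 18 within 100 kb. The correlation of Glp1r and Dnah8 over cell types turned from -0.11 by Pearson to 0.21 by Spearman. Other signs turned for values that were not called, with a library left out. The strain difference of peak 7 ran from -0.13 to 0.076 (0.076 without BL6 library 3, 0.023 without DBA library 3). Its class difference ran from -0.13 to 0.11 (0.01 without BL6 library 3, 0.11 without DBA library 2). Its strain by class value ran from -0.23 to 0.20 (0.03 without BL6 library 2, 0.20 without DBA library 2). That of peak 3 ran from -0.89 to 0.14 (0.14 without DBA library 3). The cause of these changes was not tested.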
